A study of Mustela putorius furo with 7 samples.

Results

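On 9 scaffolds of the ferret assembly MusPutFur1.0, accessible regions carried less ATAC-seq signal in CFTR-knockout (CF) pancreatic ductal epithelial (PDE) cultures than in WT cultures, along most of their length and not only at single sites. The scaffolds were GL896987, GL896997, GL897000, GL897012, GL897014, GL897015, GL897028, GL897046 and GL897153. They held 2443 of the 95129 regions in the deposited matrix of normalised signal, or 2.57%. The choice was made on the CF against WT difference itself. Among 226 scaffolds with at least 40 regions of mean log2 signal above 5, 16 had a median CF minus WT difference below -0.3 on the log2 scale relative to the remaining regions, and 9 of those 16 are described here. Of the other 7, 4 were longer, with regions up to 14.8 to 34.4 Mb, and 3 had smaller shifts. All CF against WT values below are therefore a description of how the shift is built, with no test. At the edge of the choice, GL897028 stood at -0.44 by that measure and was the member with the smallest shift. GL896901 at -0.40 and GL897067 at -0.37 were among the 16 but are not members, and GL897099 at -0.26 was the nearest scaffold outside the 16.

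The cultures came from newborn ferrets aged 1 to 3 days, either WT or with a CFTR knockout, and the study asked how loss of CFTR changes chromatin accessibility in ductal cells. Cells of both genotypes had been passaged 10 times and were then grown at an air-liquid interface for 14 days (2 weeks) without a drug or cytokine named in the labels, and about 50000 cells per culture entered the assay. Knockout ferrets of this line were made by somatic cell nuclear transfer according to the study's methods. There were 3 CF and 4 WT libraries, numbered by donor within each genotype, but the methods give an equal number of donors per genotype, so whether the 4 WT libraries are 4 independent donors is not settled, and the SD given here is the spread between libraries. Because these are bulk cultures, fewer cells in which a region is open and less opening per cell cannot be told apart. The libraries include no input DNA, so signal was not corrected for the number of DNA copies of a scaffold. Genes at these positions and marker genes of the labelled cell type were not analysed here, since no annotation or sequence of this assembly was used.

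CFTR is the epithelial anion channel that is lost in cystic fibrosis, and in the pancreatic duct it drives the secretion of bicarbonate and fluid. In ATAC-seq, a transposase inserts adapters where DNA is not wrapped in nucleosomes, so that reads pile up at active promoters and enhancers. Such elements usually open or close singly, or together over a domain that holds related genes. A scaffold is a stretch of an assembly that has not been placed on a chromosome, so the order of these 9 relative to each other is not known from the files. A shift shared by all regions of a scaffold and a change at a local group of regions are therefore separate quantities here, and both are given per library.

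Reads in regions ranged from 3226534 in library WT3 to 11047724 in CF3, and every value of the matrix equalled a whole number of reads times a factor of its library. Libraries are named by the column of the matrix. The peak lists carried the same names, but each of the 7 columns matched best to a list of its own genotype and only 1 of 7 to the list of its own name, so columns and lists are not joined by number below.

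In features other than the CF against WT difference, the 9 scaffolds were close to the rest of the assembly, although the choice required a minimum number of well covered regions. Their regions had a median width of 548 bp, against 558 bp on the scaffolds outside the 16. The median log2 signal was 4.61 against 4.58. Regions lay at 43.0 per Mb against 40.1 per Mb, and a peak was present in all 7 lists for 25.1% against 26.5% of regions. The spread between libraries of a genotype was also similar, with a median SD of 0.62 against 0.67 on the log2 scale within WT and 0.38 against 0.35 within CF. The members differed more among themselves than as a group. The last region ended at 2.17 Mb on GL897153 and at 7.97 Mb on GL896987, and the scaffolds held between 130 regions on GL897153 and 375 on GL896987. GL897153 was the densest at 59.8 regions per Mb, at the 88.1 percentile of the 226 scaffolds, and had the highest median log2 signal at 5.15. GL897000 was the sparsest at 29.9 regions per Mb and had the lowest median log2 signal at 4.26. The scaffold-wide shift was present on both.

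The level of a scaffold in a library was taken as the median over its regions of log2(signal + 1), after each region was centred on its mean over the 7 libraries, minus the same median over the 88266 regions outside the 16 scaffolds. Over all 2443 regions together this level was -0.33 in CF1, -0.33 in CF2 and -0.33 in CF3. It was 0.14 in WT1, 0.31 in WT2, 0.24 in WT3 and 0.32 in WT4. The 3 CF libraries were thus almost level with each other (SD 0.00043), the 4 WT libraries were spread more widely with WT1 lowest, and the genotypes did not overlap. The CF minus WT difference was -0.58 ± 0.04 (SE of the difference, 3 CF and 4 WT libraries). Relative to the regions outside the 16 scaffolds, the level was thus 1.497-fold higher in WT. Taken from summed reads in place of the median over regions, the difference was -0.28. On the other 7 of the 16 scaffolds, which were chosen by the same rule, it was -0.50 ± 0.03.

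The shift ran through the whole distribution of regions. In all, 70.6% of the member regions had a lower mean log2 signal in CF than in WT, against 46.6% outside the 16. The median difference of a member region, relative to the median outside the 16, was -0.56. The value at the 10th percentile was -1.91 against -1.17 outside, and at the 90th percentile 0.77 against 1.28. Both tails had moved down, and the interquartile range was 1.24 against 1.07. The plot of the distribution shows that the member curve is displaced towards lower values in CF over its full width, and that subtracting the offset of each scaffold brings it back over the curve of the other regions, as it must for the median.

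**Figure D1:**
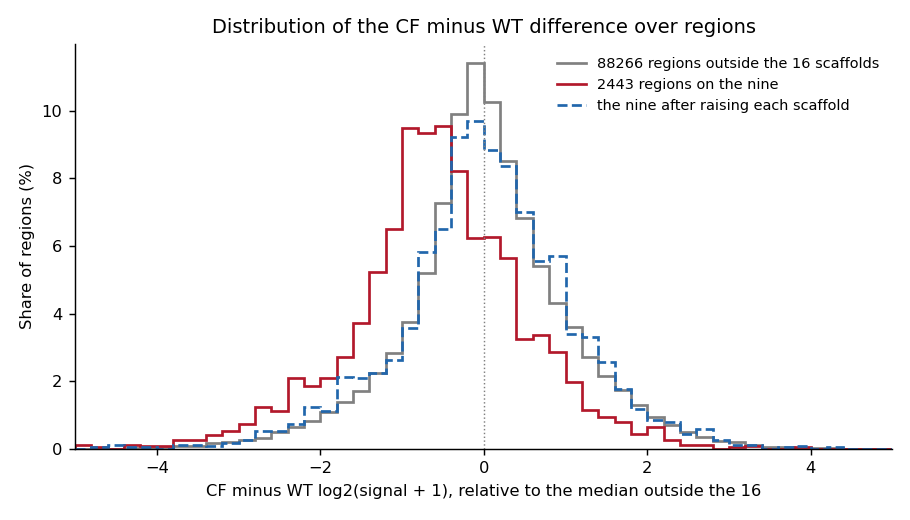
Share of regions (y axis, percent) by CF minus WT difference in log2(signal + 1), relative to the median outside the 16 scaffolds (x axis), for regions outside the 16 (grey), the 9 scaffolds (red) and the 9 scaffolds after the offset of each scaffold was subtracted (blue, dashed). The red curve has its median at -0.56 and lies to the left of the grey curve in both tails.

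All 9 scaffolds showed the shift in each library. The lowest was GL897153, at -0.53, -0.31 and -0.41 in CF1 to CF3 and at 0.10, 0.32, 0.38 and 0.37 in WT1 to WT4. Its CF minus WT difference was -0.71 ± 0.09 (SE), or a level 1.64-fold higher in WT relative to regions outside the 16. The highest was GL897028, with -0.14, -0.27 and -0.21 in CF and 0.17, 0.23, 0.26 and 0.22 in WT, a difference of -0.43 ± 0.04 or 1.34-fold. Between these ends stood GL897012 at -0.67, GL897014 at -0.61, GL896997 at -0.60, GL897046 at -0.59, GL897015 at -0.57, GL896987 at -0.55 and GL897000 at -0.54. The highest CF library stayed below the lowest WT library on 9 of 9 scaffolds, with a gap of 0.22 on GL897046 to 0.56 on GL897012. The scaffolds were chosen on this contrast and no such count is given for other scaffolds, so nothing is read from it. Neighbours in this order were mostly within their error: of the 36 pairs of scaffolds, 10 differed by more than 2 SE of the difference between them. GL897028 was a partner in 7 of those 10 pairs, and the step from GL897000 to GL897028 (0.12) was the widest in the order. GL897014 and GL897015, of nearly the same length, differed by 0.04 ± 0.05 (SE).

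Library by library, the scaffolds did not keep a fixed order. CF1 was the lowest CF library on GL896997, GL897046 and GL897153 and the highest on 5 others, with levels from -0.53 to -0.14. CF2 was the lowest CF library on the other 6 scaffolds, and CF3 on none. In WT, WT1 was lowest on 6 of 9 and WT3 on 3 of 9. The most divergent value was WT1 on GL897046, at -0.02, where the other WT libraries lay between 0.31 and 0.33. This left GL897046 with the smallest gap between genotypes. GL897000 was the opposite case in WT, where the 4 libraries lay within 0.23 to 0.26, while its CF libraries ranged from -0.39 to -0.18. The plot of scaffold levels shows these positions.

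**Figure D2:**
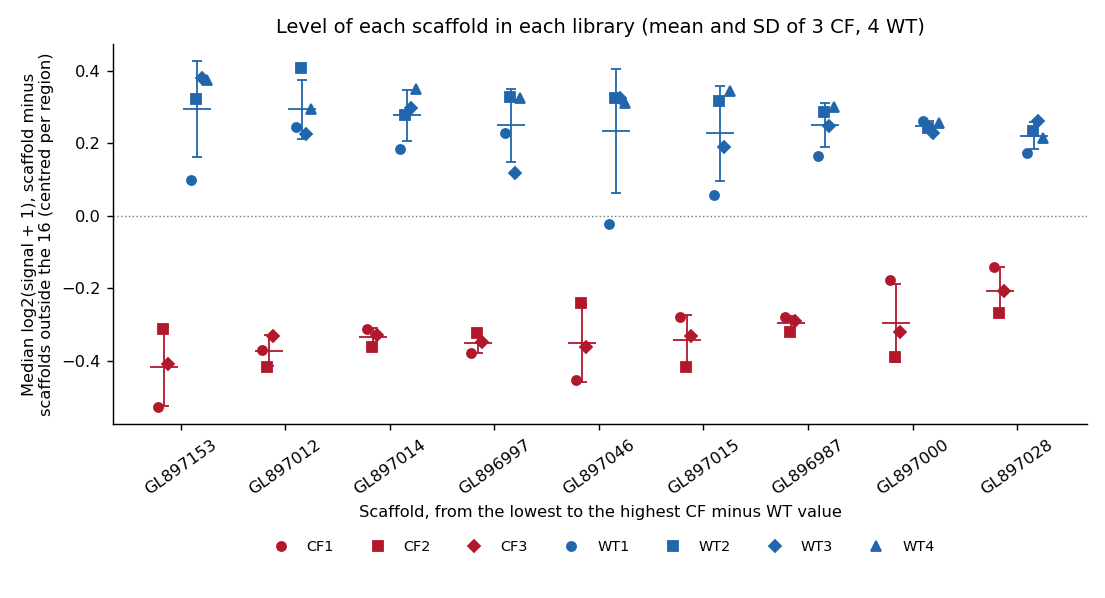
Level of each of the 9 scaffolds (x axis, ordered by CF minus WT difference) in each library (y axis, median centred log2(signal + 1) relative to scaffolds outside the 16), with CF libraries in red, WT libraries in blue, and the mean and SD of each genotype. Every CF point lies below every WT point of the same scaffold, and WT1 on GL897046 lies apart from the other 3 WT libraries.

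Set against regions of like strength outside the 16, the size of the shift changed little with the strength of a region. When regions were split at the quartiles of mean signal over all regions and set against regions of the same quartile outside the 16, the CF minus WT difference was -0.58 ± 0.05 (SE, 575 member regions) in the weakest quartile, -0.59 ± 0.06 (631) and -0.58 ± 0.04 (633) in the middle quartiles and -0.53 ± 0.05 (604) in the strongest. The range over quartiles was thus about as wide as the error of each. Split by region width in the same way, the difference lay between -0.65 and -0.54 in all 4 quartiles. Single scaffolds were less even. GL897012 had -0.90 in the weakest and -0.45 in the strongest quartile of signal, GL897000 ranged from -0.96 in the second quartile to -0.35 in the weakest, and GL897015 had its largest shift, -0.68, in the strongest. Without the reference, the median CF minus WT difference of member regions was -0.05, -0.40, -0.60 and -0.64 from the weakest to the strongest quartile. Outside the 16 it was 0.51, 0.15, -0.003 and -0.10. In the weakest quartile, member regions were thus nearly level between genotypes, while regions elsewhere were higher in CF. Over the whole matrix, 3201 to 16770 regions stood at the least value of 1 read in WT libraries, against 568 to 1280 in CF libraries. For these values without the reference, genotype therefore cannot be told apart from depth and this floor in weak regions.

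Peak presence gave a somewhat different picture. For the 614 member regions with a peak in all 7 lists the difference was -0.49 ± 0.04 (SE), for the 1196 with a peak in 3 to 6 lists -0.64 ± 0.04, and for the 633 with a peak in 2 lists -0.70 ± 0.07. Regions found open in every culture were thus shifted too, though less. Restricting these to single scaffolds left a narrow range, from -0.56 on GL897153 to -0.44 on GL896997. Even the regions with a peak in all CF lists and in no WT list (69 regions) were lower in CF than their counterparts elsewhere, by -0.33 ± 0.07. They made up 2.82% of member regions against 4.57% outside, and regions with a peak in all WT lists and no CF list made up 1.84% against 0.98%.

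Along the scaffolds the shift was present in nearly every part. The 9 scaffolds were cut into bins of 1 Mb, and 40 bins held at least 10 regions with a mean log2 signal above 5. The CF minus WT difference was below 0 in all 40, with a median of -0.57, and every CF library was below every WT library in 35, beside 111 of 1200 such bins (9.25%) outside the 16. These bins rest on the same well covered regions by which the scaffolds were chosen. Of the 40 bins, 34 (85%) were below -0.3, whereas 60 of 1200 such bins outside the 16 (5%) were. The ends of the range were -1.58 from 4 to 5 Mb on GL897015 and -0.13 from 1 to 2 Mb on GL897014. In 19 further bins with fewer regions, 16 were below 0.

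Splitting each scaffold at its midpoint gave 18 sides, and all 18 were below 0. On GL896987 the sides were equal, at -0.54 each. On GL897012 the side of lower coordinates was at -0.78 ± 0.07 (SE) and the other at -0.42 ± 0.07. The same order was found on GL897046 (-0.70 ± 0.10 and -0.36 ± 0.11) and GL897028 (-0.58 ± 0.05 and -0.26 ± 0.07). GL897000 ran the other way and was the most uneven. Its side up to 3.63 Mb held 64 regions with a median log2 signal of 3.53 and a difference of only -0.14 ± 0.17, where CF1 at 0.20 lay above 3 of the 4 WT libraries. The remainder of GL897000 held 153 regions with a difference of -0.68 ± 0.03, and there the 3 CF libraries lay between -0.39 and -0.33 and the 4 WT libraries between 0.27 and 0.35. The scaffold maps show this weakly covered stretch as the left part of GL897000, and the deep local fall of GL897015 as a cluster of points under its median.

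**Figure D3:**
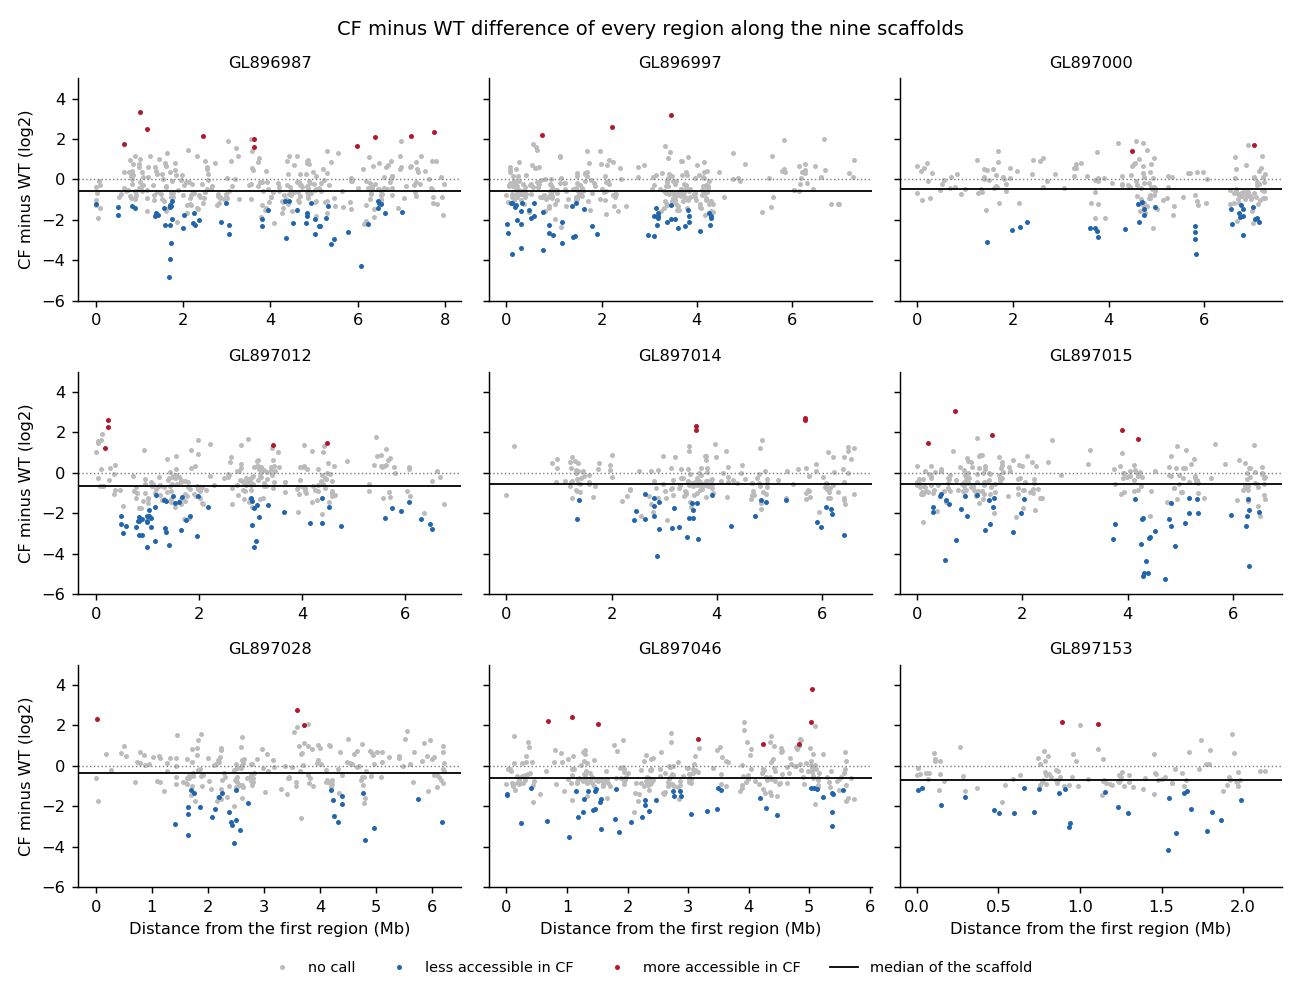
CF minus WT difference in log2(signal + 1), relative to the median outside the 16 scaffolds (y axis), of each member region by its distance from the start of its scaffold's regions in Mb (x axis), 1 panel per scaffold. Grey points are regions without a call, blue and red points those called less and more accessible in CF, and the black line is the scaffold median, which lies between -0.68 on GL897153 and -0.35 on GL897028.

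Calls came from a limma fit over the whole matrix, with a log2 fold change beyond 1 in either direction and an adjusted p below 0.05. Of the 2443 member regions, 389 (15.9%) were called less accessible in CF, beside 6.26% of all regions tested, and 42 (1.72%) more accessible, beside 4.31%. Since the scaffolds were chosen on this contrast, nothing is read from that excess. CF and WT libraries did not overlap, with CF lower, in 768 member regions (31.4%, beside 12.8% of all regions), and with CF higher in 117 (4.79%, beside 11.5%). The number called more accessible fell from 42 to 12, 11 and 11 without CF1, CF2 and CF3, a like fall whichever CF library was left out. Each of these fits had fewer CF libraries, so they do not show dependence on a particular library. Scaling by library size in place of the authors' factors gave 234 lower and 76 higher. The 1933 member regions without a call in this fit or in the following fit still had a difference of -0.45 ± 0.04 (SE) against regions without a call outside the 16.

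To separate the scaffold-wide shift from local changes, the offset of each scaffold in each library was subtracted and the same limma fit was repeated. This left 164 member regions (6.71%) called less accessible, beside 5.98% of all regions, and 121 (4.95%) called more accessible, beside 4.34%. All 164 had been called before, 225 calls of lower accessibility were lost, and 79 regions were called more accessible that had not been. The scaffolds differed in what was left. On GL897046, 12 of 48 calls of lower accessibility remained and 22 regions (6.71%) were called more accessible. GL897015 kept 30 of 50 calls, which were 10.9% of its 276 regions, and GL897028 kept 17 of 30. On GL896987 the calls were evenly split after the subtraction, with 23 lower and 22 higher of 375. Counts after the subtraction changed when a library was left out, to like numbers for each CF library and less evenly for the WT libraries. Without CF1, CF2 and CF3, 105, 107 and 113 were called less accessible, and 112 (without WT2) to 185 (without WT3) with a WT library left out. Without CF1, CF2 and CF3, 50, 46 and 53 were called more accessible, and 93 to 159 with a WT library left out. The plot of called shares sets both fits side by side.

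**Figure D4:**
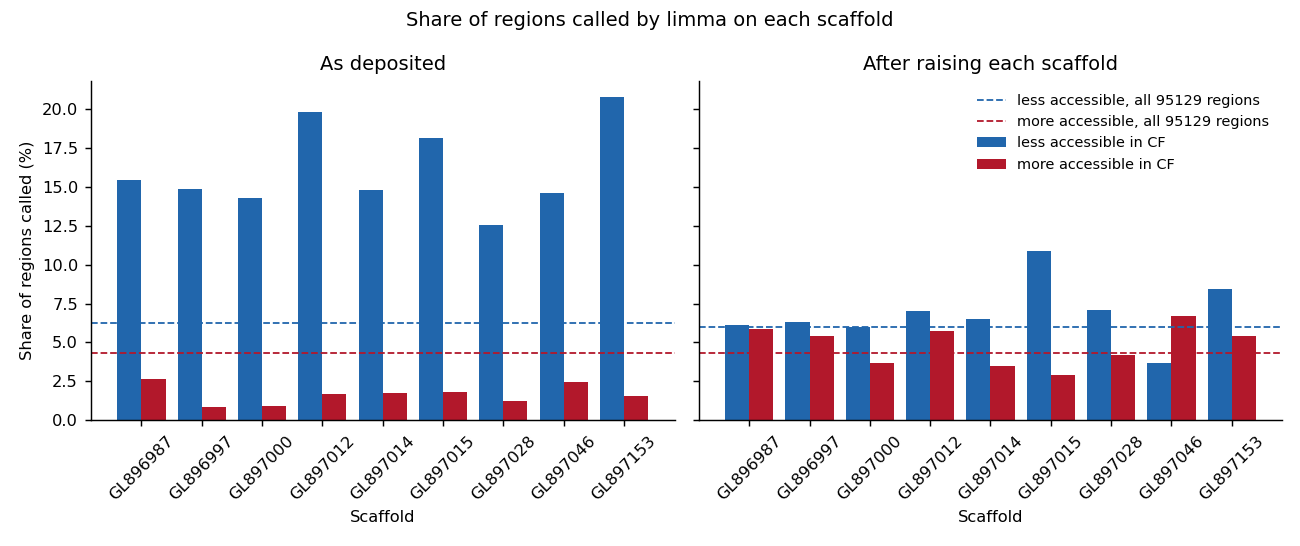
Share of the regions of each of the 9 scaffolds (x axis) called less (blue) or more (red) accessible in CF by limma (y axis, percent), before (left) and after (right) the offset of each scaffold was subtracted, with dashed lines for all regions. Before the subtraction the blue bars lie between 12.6 and 20.8% and above their line on every scaffold, and after it they lie between 3.66 and 10.9%.

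The GL897015 stretch from 4.2 to 4.8 Mb held the deepest falls among well covered regions and is described in full. Of its 23 regions, 12 were called less accessible and 1 more accessible by limma, and the counts were the same after the scaffold offset was subtracted. Among the other 253 regions of GL897015, 38 were called less accessible before and 18 after. Relative to those other regions, the median level of the stretch was -0.57 in CF1, -1.09 in CF2 and -1.06 in CF3. In WT it was 0.69, 0.63 and 0.62 in WT1 to WT3 and 1.00 in WT4. The genotypes did not overlap, CF1 was the least reduced CF library and WT4 stood above the other WT libraries. The CF minus WT difference was -1.64 ± 0.19 (SE), which adds to the shift of the rest of the scaffold (-0.52 ± 0.08) to give -2.16 ± 0.24 against regions outside the 16. Without the stretch GL897015 thus kept most of its shift, which was -0.57 over all its 276 regions. The limits of the stretch mattered: widened to 4.1 to 4.9 Mb, its difference from the rest of the scaffold was -0.70.

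Signal at the single regions of the stretch shows how complete the loss was. The most open WT region, at GL897015:4377871-4380005 (2135 bp), had a normalised signal of 829, 826, 935 and 613 in WT1 to WT4 and of 25.1, 19.4 and 32.6 in CF1 to CF3. Its ratio of mean signals was 31.2-fold, and peaks were present in 4 of 4 WT lists and in 0 of 3 CF lists. At GL897015:4700410-4701609 (1200 bp), 254, 333, 326 and 266 in WT stood against 13.3, 3.73 and 6.18 in CF, which were 17, 5 and 11 reads. This was the largest fall among well covered regions of the 9 scaffolds, 38.1-fold, with a local change of -4.75 ± 0.44 (SE, log2) after the scaffold offset was removed. In both regions the lowest WT library was more than 10 times above the highest CF library.

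A further 3 regions at lower coordinates had falls of a like size. The region at GL897015:4299241-4300150 (910 bp) had 289, 347, 486 and 337 in WT and 5.49, 9.70 and 16.9 in CF, and its local change was -4.59 ± 0.47 (SE). Close by, at GL897015:4304555-4305605 (1051 bp), WT signal was 179 to 378 and CF signal 5.49 to 10.4, with a local change of -4.44 ± 0.37. At GL897015:4345748-4346947 (1200 bp), WT libraries were tightly grouped at 311 to 361, CF libraries at 12.7 to 19.6, and the local change was -3.82 ± 0.15. The sixth, GL897015:4251732-4252364 (633 bp), was weaker in WT, with 64.6, 137, 111 and 147, and had 8.63, 8.95 and 9.55 in CF. None of these groups overlapped, and peaks were present in 4 of 4 WT lists and in at most 1 of 3 CF lists at each. The regions were taken as the called ones with the largest fall, so this largely follows from the choice.

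The stretch was not closed throughout. From 4251732 to 4425020, 9 of 11 regions were called less accessible after the scaffold offset was subtracted, and the 2 that were not had weak signal in both genotypes. At GL897015:4511515-4512030 (516 bp), however, signal was 223, 224 and 248 in CF and 173, 211, 231 and 220 in WT, and the libraries overlapped. The next region, at GL897015:4514349-4514838 (490 bp), CF had 17.3, 5.22 and 8.43 against 51.4 to 85.5 in WT and was called less accessible. At the start of the stretch, GL897015:4206097-4206975 (879 bp) had 246, 255 and 275 in CF and 370 to 495 in WT, a 1.74-fold difference with a local change of -0.31. The neighbouring region at GL897015:4203836-4204436 (601 bp) went up, from 7.34 to 45.3 in WT to 69.1 to 88.6 in CF, and was called more accessible. Regions that kept or gained signal thus lay next to regions that lost most of it, as the plot of the stretch shows.

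**Figure D5:**
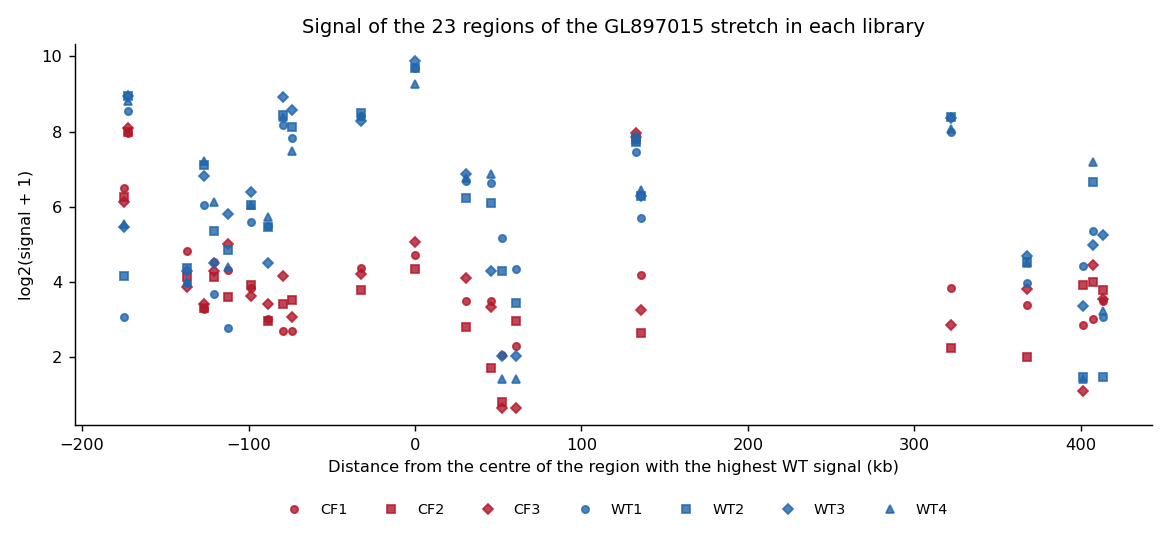
Log2(signal + 1) of the 23 regions on GL897015 between 4.2 and 4.8 Mb (y axis) in each CF (red) and WT (blue) library, by distance in kb from the centre of the region with the highest WT signal (x axis). At that centre WT signal is 613 to 935 and CF signal 19.4 to 32.6, while CF and WT points overlap at the region with 173 to 248 in all libraries.

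Smaller groups of local closing were found on other members. A group was taken as 3 or more regions called in the same direction after the subtraction, each at most 50 kb from the next. How often such groups form on other scaffolds was not counted, so they are not read as particular to these 9. Called shares after the subtraction (6.71% less and 4.95% more accessible) were near those of all regions (5.98% and 4.34%). On GL896987, 5 of 13 regions between 1674286 and 1751256 were called less accessible, with local changes of -4.25 to -1.42. The deepest was GL896987:1674286-1675700 (1415 bp), with 465, 639, 710 and 615 in WT and 28.2, 13.4 and 25.8 in CF, with the genotypes far apart. On GL897028, 4 of 4 regions between 2582144 and 2664785 were called, with a median local change of -2.52, although this scaffold had the smallest shift. On GL897000, 4 of 5 regions between 5798627 and 5815935 were called, within 17.3 kb, and on GL897015 a second group of 4 of 11 lay between 6244027 and 6307269. GL897012 had 3 such groups of 3 regions each. None of the groups held a call in the opposite direction.

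Local opening was found on 6 of the 9 scaffolds, with the longest stretches on GL897012 and GL897046. GL897046 had no locally closed stretch or group. A stretch here joins touching windows of 100 kb that were chosen for a local CF minus WT change past 1, as counted below. Its difference and any lack of overlap therefore largely follow from that choice. On GL897012, a stretch of 15 regions from 3656 to 276348, at the start of the scaffold, had levels relative to the rest of the scaffold of 1.05, 1.08 and 0.95 in CF and of -0.75, -0.78, -0.49 and -0.47 in WT, a local difference of 1.65 ± 0.09 (SE) with no overlap. Its regions were weak, with a median log2 signal of 3.84. Of the 15, 3 were called more accessible before the subtraction and 6 after. On GL897046, 11 regions from 4760667 to 4895127 had a local difference of 1.28 ± 0.23, with CF at 0.45 to 1.02 and WT at -1.01 to -0.28. Groups of 3 called regions were also found on this scaffold between 5019333 and 5095360 (median local change 2.78) and between 3121241 and 3172382 (1.47), on GL896987 between 990362 and 1023981 (1.56) and on GL897000 between 4497899 and 4564896 (1.86).

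Counted in windows of 100 kb with at least 4 regions, local change past 1 on the log2 scale was counted on the 9 scaffolds and elsewhere. Of 289 windows, 11 (3.81%) were locally closed, beside 3.31% of 8701 windows outside the 16, and 14 (4.84%) were locally opened, beside 3.49%. Both shares were near those of the other scaffolds. Joined where they touched, the windows formed 11 closed and 11 opened stretches. The closed stretch with the largest difference held 4 regions of GL897012, from 501152 to 588032, and was at -1.72 ± 0.43 (SE) against the rest of its scaffold. The 2300 member regions outside all these stretches had a CF minus WT difference of -0.58, the same as for all members. These 2300 still held most of the GL897015 stretch from 4.2 to 4.8 Mb. Of its 23 regions, the window rule took in only 4, from 4409170 to 4439473, whose level overlapped between CF and WT libraries. The well covered region with the largest fall, at GL897015:4700410-4701609, was not among those 4.

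On each scaffold, the region with the largest local fall and the one with the largest local rise among well covered regions show how wide the range around the shift was. Falls on the other scaffolds reached -3.54 on GL897014 (GL897014:2864728-2865833, 80.0 to 211 in WT and 2.81 to 11.8 in CF), -3.30 on GL897028 (GL897028:5008423-5009082, 98.9 to 128 and 5.97 to 10.1) and -2.94 on GL897046 (GL897046:1039205-1040084, 101 to 137 and 8.63 to 11.8). The WT libraries of each were all more than 6 times above the CF libraries. On GL897153, GL897012, GL897000 and GL896997 the largest falls were -2.66, -2.42, -2.26 and -2.20. The region with the largest fall on each of the 9 scaffolds was called less accessible both before and after the subtraction, and had a peak in 4 of 4 WT lists. These regions were picked for their fall and for no overlap of CF and WT libraries, so this largely follows from the choice.

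Rises were smaller in absolute signal. The largest over all libraries was GL897015:721252-721988 (737 bp), with 103, 153 and 103 in CF and 1.47, 20.4, 33.8 and 18.4 in WT, where 1.47 was a single read in WT1, and its local change was 3.58 ± 0.83 (SE). GL896997:2216258-2217027 (770 bp) followed, with 98.0, 92.5 and 128 in CF and 9.23 to 27.9 in WT, and a local change of 3.18. Without WT1 the order was reversed, with 2.86 for the former and 3.47 for the latter. The strongest region that rose was GL896987:649690-650838 (1149 bp), with 315, 369 and 292 in CF and 109, 114, 36.9 and 144 in WT. In each of these 3 the libraries did not overlap before the offset was removed either. On GL897014, GL897028 and GL897153, by contrast, the region with the largest rise was called more accessible only after the subtraction. GL897028:4939517-4939850 (334 bp) was such a region, with 54.9 to 95.5 in CF and 8.80 to 67.0 in WT, which overlapped before the offset was removed.

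The peak lists, of which there was 1 per library, showed the shift as a share of peaks and not as a number. The 9 scaffolds held 1768 to 2403 peaks in CF lists and 1433 to 2597 in WT lists, which overlapped. They carried 2.30, 2.34 and 2.24% of the peaks of the 3 CF lists and 2.94, 2.96, 2.91 and 2.89% of those of the 4 WT lists, or 2.29% ± 0.05 (SD) against 2.93% ± 0.03. The ranges were far apart, although the total number of peaks per list varied from 48417 to 104397 and overlapped between genotypes. For the peaks that were called on the 9 scaffolds, the median of the caller's fold enrichment was 0.96 to 0.98 of the median outside the 16 in CF lists and 0.91 to 0.94 in WT lists. This ratio was thus lower in WT, the reverse of the order of the peak shares, and the reason was not tested. Member regions with a peak in at least 1 CF list and in no WT list numbered 228 (9.33%, against 12.8% outside the 16), and those with a peak in at least 1 WT list and in no CF list 373 (15.3%, against 9.47%). The share of reads showed the same order as the share of peaks. The members took 1.98 to 2.02% of all reads in regions in CF and 2.15 to 2.65% in WT, and the scaffold with the most read region of the matrix took 7.15 to 22.6%. Without that scaffold and the other 7 of the 16 the share was 2.28 to 2.30% in CF and 3.00 to 3.33% in WT.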

How the data were processed

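Bulk ATAC-seq libraries of 3 CF and 4 WT ferret PDE cultures were analysed from a matrix of 95129 regions and 7 peak lists. According to the study's methods, the authors trimmed 150 bp paired-end reads, aligned them with Bowtie 2 to MusPutFur1.0, called peaks with MACS2 and compared genotypes with DiffBind. There is 1 peak list per library, and how regions were merged for the matrix is not given in the sources used here. That deposited matrix holds signal, which is read counts divided by a factor per library, and 100% of values came out as whole reads within 0.001 reads. The deposited peak lists hold a score, a fold enrichment and −log10 p-values and q-values per peak. A table of the authors' own comparison (fold changes, p-values) was not used. Libraries had 3226534 to 11047724 reads in regions, the least value was 1 read, and the files do not give molecular identifiers.

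A pseudocount of 1 was added before log2. Region starts are given 1-based. Levels were set against 88266 regions on scaffolds outside the 16, and SE and SD are over libraries. The matrix was fitted with limma 3.58.1 (mean trend, Benjamini-Hochberg over all regions) in R 4.3.3, on genotype alone, with a call where the log2 fold change was beyond 1 and the adjusted p below 0.05. The fit was repeated after the median offset of each of the 9 scaffolds was subtracted per library. The fitting code was tested on simulated data. The alternatives were count models of the recovered reads in edgeR 4.0.16 and in DESeq2 1.42.0, other scalings, pseudocounts, filters, windows and reference regions, and leaving out each library. A region was named where it had the largest fall or rise on its scaffold after removal of the offset, with a mean log2 signal above 5 and no overlap of CF and WT libraries, together with the 6 called regions with the largest fall on GL897015 from 4.2 to 4.8 Mb. Other regions of that stretch were named after their values were seen, as were groups of called regions. The scaffolds, the stretch and these rules were chosen with earlier results of these data known.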

Additional observations from a re-analysis of the deposited data

Results flagged for a closer look

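In 57 values over the 4 WT libraries (levels of scaffolds and of stretches), a single library stood far from the other 3 in 3 cases, by Dixon's criterion, and chance gives about 1 in 20. The level of GL897046 was -0.0217 in WT1, where the other WT libraries lay between 0.31 and 0.33. The level of GL897015 from 4.2 to 4.8 Mb against the rest of that scaffold was 1.00 in WT4, where the others lay between 0.62 and 0.69. The locally opened stretch of GL896997 from 605700 to 685521 was at -0.0677 in WT2, where the others lay between -0.38 and -0.33. CF and WT libraries were apart in each of the 3 cases. Groups of 3 CF libraries were not examined in this way.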

How the results depend on the processing

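The CF minus WT differences of the 9 scaffolds together, of each scaffold, of the GL897015 stretch and of the 23 named regions kept their sign under every alternative run, while bins, quartiles, peak classes and other stretches were not recomputed. The difference of the 9 scaffolds together, -0.58, was -0.47 with a pseudocount of 8, -0.49 for regions with a peak in all 7 lists, -0.28 from summed reads and -0.47 from summed reads without the scaffold of the most read region, an alternative added after seeing the data. With a pseudocount of 8 the difference was -0.44 on GL896987, -0.49 on GL896997, -0.43 on GL897000, -0.52 on GL897012, -0.50 on GL897014 and -0.34 on GL897028. For regions of mean log2 signal above 5 it was -0.55 on GL897012 and -0.53 on GL897014, and as a mean over regions -0.71 on GL897015. Member regions called more accessible (42) numbered 76 with library size scaling, 13 with the filter on low signal and 11 to 54 with each library left out. Those called less accessible (389) numbered 234 and 224 under the same settings, 194 past a log2 fold change of 2, and 268 to 434 with each library left out. edgeR called 49 and 431, DESeq2 50 and 502, and the cause of these moves was not tested. After the offsets were subtracted, leaving out each library gave 46 to 159 more and 105 to 185 less accessible. The GL897015 stretch (-1.64) was at -1.09 with a pseudocount of 8, -0.70 from 4.1 to 4.9 Mb, and -1.84 to -1.46 with each library left out. Windows past 1.5 numbered 5 closed and 4 opened, windows of 200 kb gave 5 opened, and leaving out each library gave 9 to 14 closed and 11 to 17 opened. Of 207 values of the named regions, 199 moved by less than the spread between libraries. Same-numbered CF and WT libraries deviated with correlations of 0.08, 0.07 and -0.02, and the other pairs with -0.09 to 0.05. Values this weak, from columns whose numbers are in doubt, do not settle whether the numbers pair libraries. With the replicate number as a block the difference was -0.56, the stretch was at -1.55, and the calls were 50 more and 390 less accessible, or 149 and 174 after the subtraction. WT3 was the shallowest library and limits the weak regions most.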
